A study of Mus musculus with 17 samples.

Results

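The genes described here were 10 members of the inflammatory cytokine system, measured by RNA-seq in mouse mesothelioma. Of 55450 genes in the count matrix they were the rows whose Ensembl identifiers carry the symbols Il1a, Il1b, Il1rn, Il1r1, Il1r2, Il1f6, Il1f9, Il18, Il6 and Tnf in Gencode vM21, and all 10 were found. The tumors grew in the peritoneum of 8-week-old female BALB/c mice injected there with AB12 cells, a mesothelioma line of the same strain, so all groups shared the line, the site and the host. Untreated tumors were collected 6 days (d6, n = 3), 10 days (d10, n = 5) and 14 days (d14, n = 3) after cell injection, and tumors of mice given the anti CTLA-4 antibody clone 9D9 into the peritoneum were collected at d10 (n = 3) and at d14 (n = 3). Anti CTLA-4 blocks a receptor that restrains T cells. The study describes the treated d14 tumors as injected on d6 and d10, the number of injections behind the treated d10 tumors was not given in the sources used here, and the labels name no control antibody for the untreated mice. Each library was made from a whole tumor with its host cells, and AB12 is 1 line, so each level is an average over malignant, stromal and immune cells.

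Interleukin (IL)-1 signaling starts when either agonist, IL-1α (Il1a) or IL-1β (Il1b), binds the receptor IL-1R1 (Il1r1), which recruits MyD88 and activates NF-κB. The pathway carries its own brakes, since the antagonist IL-1RA (Il1rn) occupies IL-1R1 without signaling and IL-1R2 (Il1r2) is a decoy receptor that binds the agonists without passing on a signal. IL-36α (Il1f6) and IL-36γ (Il1f9) belong to the same family, act through the receptor encoded by Il1rl2 and are best known from epithelia, while IL-18 (Il18) drives interferon-γ production and, like IL-1β, is made as a precursor that inflammasomes activate. IL-6 (Il6) and TNF (Tnf) are inflammatory cytokines that NF-κB induces and that myeloid and stromal cells secrete.

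The 5 IL-1 and IL-36 ligand genes lie on chromosome 2 of the GRCm38 build. Il1f9 (24186476 to 24193568), Il1f6 (24215418 to 24225702) and Il1rn (24336853 to 24351494) are on the forward strand, and Il1b (129364570 to 129371139) and Il1a (129299610 to 129309972) on the reverse strand. The receptor genes Il1r2 (40074079 to 40125231) and Il1r1 (40225080 to 40317257) are neighbors on chromosome 1. Il18 lies on chromosome 9 (50554827 to 50581840), Il6 on chromosome 5 (30013114 to 30019981) and Tnf on chromosome 17 (35199381 to 35202007). Transcripts on the opposite strand share 222 exon bases with Il1a (Gm14023, 13 to 49 counts in a library) and 25 with Il1b (Il1bos, 0 to 34 counts), against at least 379 and 1352 counts of the 2 members. Whether counting used strand was not given in the sources used here.

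The 250 bases before the transcription start are shown for Il6 and Il1r1, the members with a window that holds a match to the consensus NF-κB motif, and for the IL-1 agonists Il1a and Il1b. Capitals mark the NF-κB match, read on either strand. Sequences are from RefSeq on GRCm38.p6, written 5′ to 3′ on the strand of the gene.
Il6, chr5:30012864-30013113, forward strand: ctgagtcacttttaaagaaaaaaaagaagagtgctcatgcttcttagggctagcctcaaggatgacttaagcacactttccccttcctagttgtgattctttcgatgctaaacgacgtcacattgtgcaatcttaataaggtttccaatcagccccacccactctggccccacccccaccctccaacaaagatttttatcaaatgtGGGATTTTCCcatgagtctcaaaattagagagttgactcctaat
Il1r1, the downstream of 2 starts, chr1:40266336-40266585, forward strand: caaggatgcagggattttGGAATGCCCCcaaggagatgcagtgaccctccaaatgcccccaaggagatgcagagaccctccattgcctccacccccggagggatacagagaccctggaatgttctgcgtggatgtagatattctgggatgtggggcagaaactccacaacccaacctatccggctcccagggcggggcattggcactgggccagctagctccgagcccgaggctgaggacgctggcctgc
Il1a, chr2:129309973-129310222, reverse strand: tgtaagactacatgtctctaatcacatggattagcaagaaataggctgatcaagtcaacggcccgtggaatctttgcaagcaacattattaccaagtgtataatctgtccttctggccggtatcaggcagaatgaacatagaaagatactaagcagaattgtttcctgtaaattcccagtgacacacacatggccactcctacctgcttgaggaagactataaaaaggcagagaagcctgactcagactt
Il1b, chr2:129371140-129371389, reverse strand: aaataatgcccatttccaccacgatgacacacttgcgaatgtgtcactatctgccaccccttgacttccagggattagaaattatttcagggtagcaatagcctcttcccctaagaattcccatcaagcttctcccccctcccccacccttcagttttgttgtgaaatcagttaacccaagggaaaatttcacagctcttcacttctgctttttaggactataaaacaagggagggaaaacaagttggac

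In Il6 the NF-κB match covered positions -44 to -35 from the start, in Il1r1 -232 to -223. Such a match was present in 8.46% of 32851 promoter windows, each reaching 50 bases past the start. The Il6 window also held the AP-1 motif TGANTCA (7.81% of windows) at -249 to -243 and the C/EBP motif TTNNGCAAT (2.18% of windows) at -128 to -120. An AP-1 match was found in Il1a at -12 to -6 and upstream of the first Il1rn start at -141 to -135. No window of Il1b, Il1f9, Il18, Tnf or Il1r2 held any of these motifs, and no window of the 9 members held the PU.1 motif GAGGAAGT (3.20% of windows), with both strands searched. The motifs share no bases within Il6. A match describes letters only. The RefSeq table held 12 windows for 9 members, Il1f6 being the other member.

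Total counts ranged from 46371577 to 96759833 per library (median 72413343). All levels below are normalized CPM (counts scaled to the library total), scaled over the 17 libraries by the trimmed mean of M values (TMM). A gene was called where its Benjamini-Hochberg adjusted p in edgeR's quasi-likelihood test was below 0.05 and its change exceeded 2-fold, and adjusted p-values are over all genes tested. All 10 members passed the filter on low counts in each comparison, the lowest count of any member being 25. The untreated d10 tumors fell into separate sets under 1 label. Replicates 4 and 5 differed from replicates 1 to 3 in 1366 of 17321 genes called (7.89%), Il1a, Il1b and Il6 among them. The RNA gene Mir6236 had 3964 to 12332 counts in replicates 1 to 3 and 141 to 176 in replicates 4 and 5, against 205 to 1244 in treated d10, 3387 to 4697 in d6 and 5 to 24 in the 6 d14 libraries. The labels give no batch, but the study's methods name sequencing projects and exclude genes with a batch effect between them. Which library belonged to which project was not given in the sources used here, and no gene was excluded here on that ground. The member calls that involve untreated d10 and depend on the set are therefore given for both sets.

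Each of 9 mesothelial markers had counts in each library, at levels from 0.425 to 1310 CPM, so their sum describes mainly the highest of them. The 9 mesothelial markers, led by Krt8, summed to 2568 to 4041 CPM in the untreated and treated d10 tumors and to 1885 to 2099 in treated d14. The 10 markers of squamous epithelium, a usual source of IL-36, reached at most 3.79 CPM in sum. Acinar pancreas genes summed to 4.01, 1097 and 3219 CPM in treated d14 replicates 2, 3 and 1 and to at most 2.45 in each other library.

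**Figure D1:**
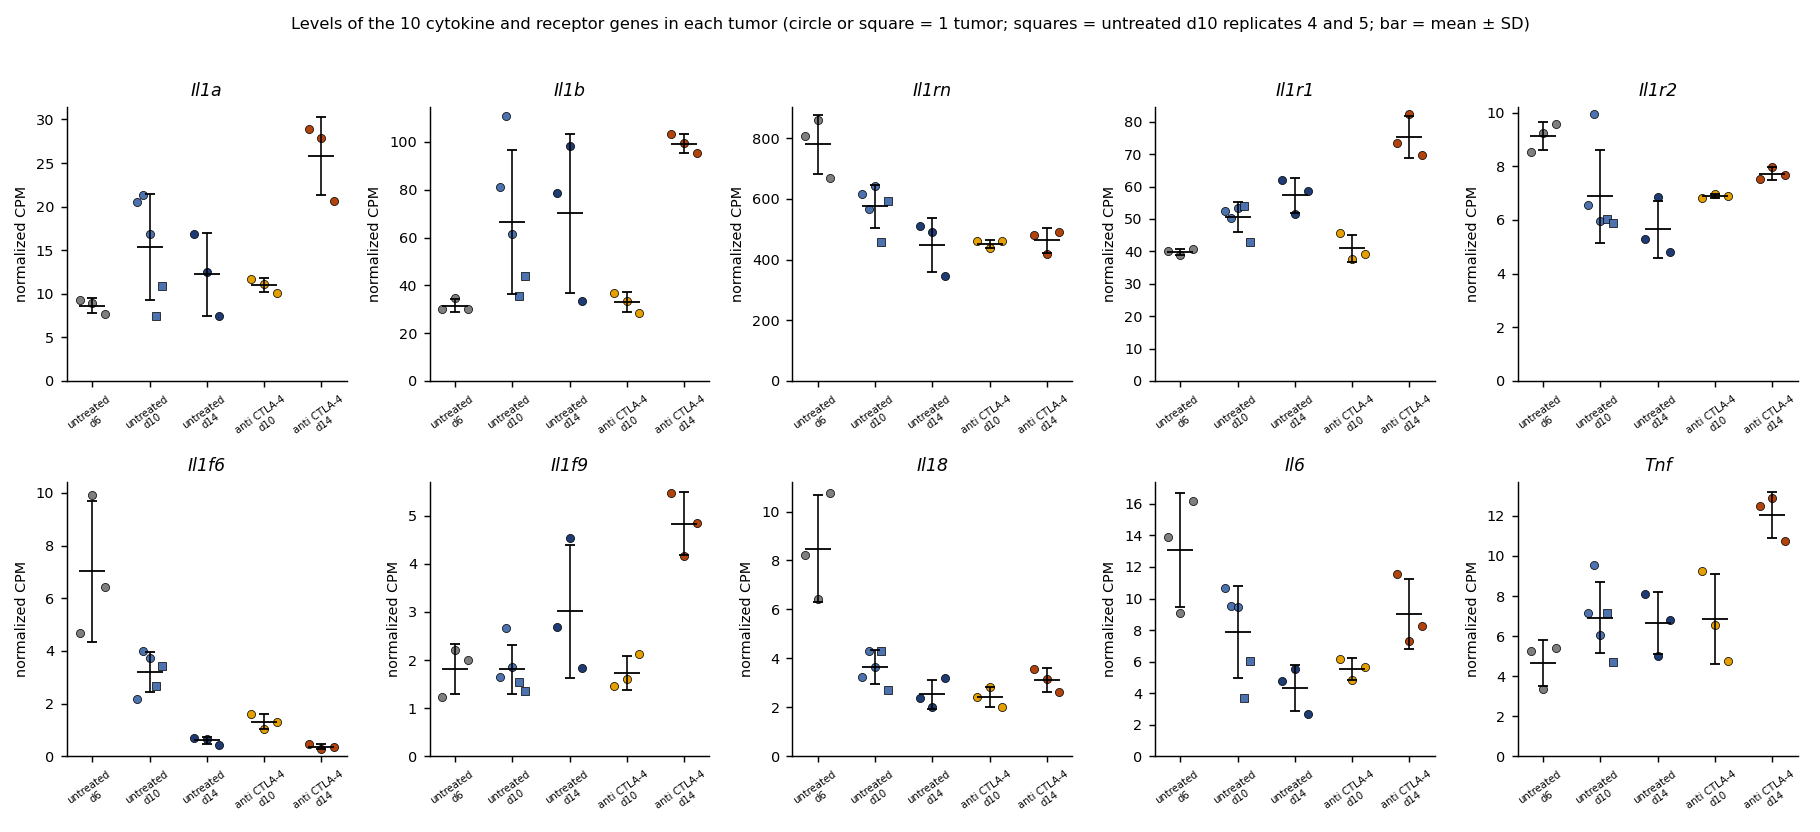
Normalized CPM (vertical axis, from 0) of the 10 genes in each of 17 tumors, grouped by treatment and day (horizontal axis), with the bar and whiskers giving mean and SD and squares marking untreated d10 replicates 4 and 5. Il1rn is the most abundant, Il1f6 declines from d6 to d14, and Il1r1 and Tnf are highest in the 3 treated d14 tumors.

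Il1rn, the antagonist, was the dominant transcript of the set. Per kilobase of exon it made up between 42.9% and 72.9% of the summed level of the 10 members in a tumor (median 62.7%), followed by Il1b with 7.89% to 30.5%. The other 8 members each stayed below 9%, the highest share being 8.74% for Il1r1, and Il1f9 had the lowest median share at 0.791%. The transcript of the natural antagonist therefore exceeded that of the IL-1β agonist per kilobase in all 17 tumors, by 1.44-fold in the tumor with the lowest ratio and 9.24-fold in the one with the highest.

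Il1f6, encoding the agonist IL-36α, varied most, with a 36.7-fold span between its highest and lowest tumor. It stood at 4.69, 9.94 and 6.44 CPM at d6, at 2.18, 3.99, 3.73, 2.65 and 3.44 in untreated d10 replicates 1 to 5, and at 0.700, 0.670 and 0.433 in untreated d14. The 3 untreated stages did not overlap, and the mean fell from 7.02 ± 2.67 (SD, n = 3) to 3.20 ± 0.759 (n = 5) and to 0.601 ± 0.146 (n = 3). In treated tumors it stood at 1.59, 1.02 and 1.32 at d10 and at 0.452, 0.271 and 0.354 at d14. Each treated d10 tumor was below each untreated d10 tumor, while the d14 groups overlapped.

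Il18 also started high and stayed low afterwards. It stood at 8.23, 6.43 and 10.8 CPM at d6, at 2.70 to 4.31 (median 3.65) in the 5 untreated d10 tumors and at 2.37, 2.02 and 3.20 at untreated d14. No d6 tumor overlapped with a later one. Il6 declined more slowly, from 13.9, 9.11 and 16.2 CPM at d6 to 10.7, 9.52, 9.46, 3.68 and 6.02 at untreated d10 and 4.78, 5.51 and 2.68 at untreated d14. Its d10 values split, with replicates 1 to 3 above 9 and replicates 4 and 5 at or below 6.02.

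Il1b moved the other way. It stood at 30.1, 34.5 and 30.1 CPM at d6 and at 81.2, 110.7, 61.5, 35.4 and 44.0 in untreated d10 replicates 1 to 5, all above d6. At untreated d14 it stood at 78.7, 98.5 and 33.5, replicate 3 being within the d6 range. Il1a, its companion agonist, stood at 9.25, 8.99 and 7.67 CPM at d6, at 20.5, 21.3, 16.9, 7.42 and 10.9 at untreated d10 and at 16.9, 12.5 and 7.40 at untreated d14. For both agonists the same tumors were low, namely d10 replicates 4 and 5 and d14 replicate 3.

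Compared with d6, untreated d10 tumors had higher Il1b and lower Il1f6 and Il18. These 3 of 10 members were called, against 7.45% of the 16866 genes tested, and 5 members had groups that did not overlap, against 28.5% of genes. The log2 change was +1.10 ± 0.33 (SE) for Il1b (adjusted p = 0.0460), -1.11 ± 0.27 for Il1f6 (adjusted p = 0.0219) and -1.20 ± 0.21 for Il18 (adjusted p = 0.00527). Il1r1 was also higher with an adjusted p of 0.0309, at +0.37 ± 0.10, which is below 2-fold. The Il1b call was the least stable, lost in 6 of 8 fits that left out 1 library (d6 replicates 1 to 3 and d10 replicates 1 to 3, adjusted p up to 0.156), and Il1f6 lost its call without d6 replicate 2 or 3 (adjusted p up to 0.118). Il18 kept an adjusted p of at most 0.0345 in all 8 such fits, though without d6 replicate 3 its change was -0.98.

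Which d10 tumors entered decided what the IL-1 agonists and Il6 showed. Against d6, Il1a was +1.21 ± 0.13 and Il1b +1.44 ± 0.18 with d10 replicates 1 to 3 alone (adjusted p = 0.000251 and 0.000536), but +0.10 ± 0.20 and +0.35 ± 0.12 with replicates 4 and 5 alone (adjusted p = 0.703 and 0.0452). Il6 was -0.38 ± 0.20 in the former and -1.42 ± 0.30 in the latter (adjusted p = 0.176 and 0.00646). Il1f6 (-1.06 and -1.19) and Il18 (-1.16 and -1.26) were called lower with either set.

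From d10 to d14 without treatment, Il1f6 was the 1 member called, at -2.42 ± 0.30 (adjusted p = 0.00486), against 7.23% of 17659 genes, and it was called in all 8 fits that left out 1 library. It was also the 1 member whose groups did not overlap, against 28.3% of genes. Il6 was -0.86 ± 0.36 (adjusted p = 0.118) and Il1b +0.08 ± 0.41 (adjusted p = 0.899). The interval of the Il1b change ran from -0.82 to +0.99, so a change of nearly 2-fold either way was not resolved. The d10 set decided Il6, which was called at -1.19 ± 0.26 against replicates 1 to 3 (adjusted p = 0.00922) and was -0.18 ± 0.37 against replicates 4 and 5 (adjusted p = 0.722). Against the same sets Il1a was -0.67 ± 0.27 and +0.41 ± 0.36 (adjusted p = 0.0816 and 0.402), and Il1b -0.25 ± 0.36 and +0.81 ± 0.42 (adjusted p = 0.606 and 0.174). Il1f6 was called with either set (-2.46 and -2.36). Mir6236 also separated d10 (141 counts or more) from untreated d14 (5 to 20), and what it tracks and the day cannot be told apart.

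Over the whole span from d6 to d14, 4 members were called, against 19.0% of 17172 genes. Il1f6 (-3.53 ± 0.33, adjusted p = 8.59e-05), Il18 (-1.73 ± 0.25, adjusted p = 0.000579) and Il6 (-1.58 ± 0.30, adjusted p = 0.00248) fell, and they were called in all 6 fits that left out 1 library. Il1b rose by +1.18 ± 0.32 (adjusted p = 0.0141), although its groups overlapped, and lost the call without d6 replicate 1 or 3 (adjusted p up to 0.0533) or, at +0.86, without d14 replicate 2. Below 2-fold, the brakes Il1rn (-0.78 ± 0.16, adjusted p = 0.00351) and Il1r2 (-0.67 ± 0.17, adjusted p = 0.0110) were lower and the signaling receptor Il1r1 higher (+0.54 ± 0.09, adjusted p = 0.00123). In all, 6 members did not overlap between d6 and d14, against 61.1% of genes. Here too Mir6236 separated the groups (3387 to 4697 counts at d6, 5 to 20 at d14), so what it tracks and the day cannot be told apart for these calls.

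**Figure D2:**
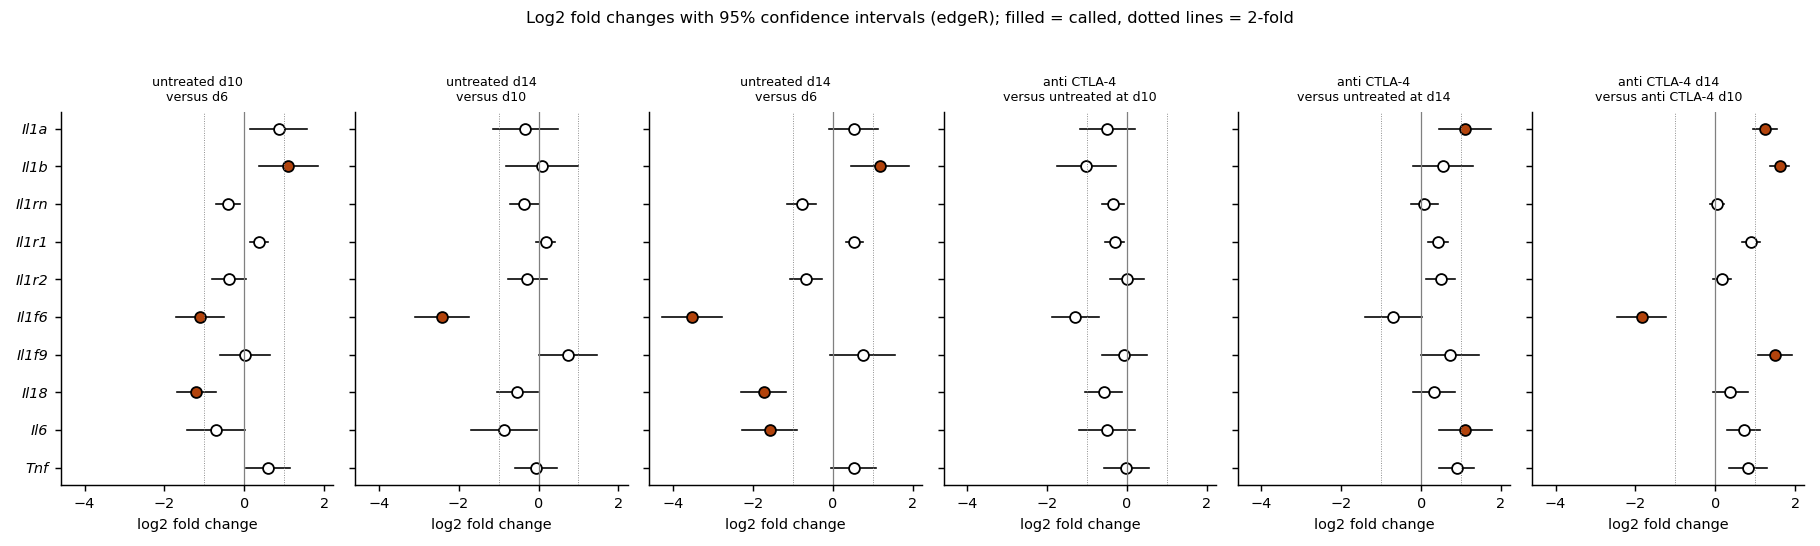
Log2 fold change (horizontal axis) of each gene (rows) in 6 comparisons, with the edgeR estimate as a point and its 95% confidence interval as a line, filled where called and with dotted lines at 2-fold. Il1f6 lies left of 0 in each panel, and all members but Il1f6 lie right of 0 in the panel of treated against untreated tumors at d14.

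The levels of antagonist and decoy relative to their partners moved with these changes. The ratio of Il1rn to Il1b per kilobase was 9.24, 8.58 and 7.66 at d6, 2.62, 1.76, 3.59, 4.45 and 4.64 at untreated d10 and 2.23, 1.72 and 3.55 at untreated d14. All d6 tumors stood above each later one. In treated tumors it was 4.30, 4.51 and 5.55 at d10 and 1.60, 1.44 and 1.78 at d14. Treated d14 tumors, with a mean of 1.61 ± 0.17 (SD, n = 3), had the lowest mean of the 5 groups and overlapped with untreated d14, whose mean was 2.50 ± 0.94 (n = 3).

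For the receptors, the ratio of Il1r2 to Il1r1 was 0.713, 0.791 and 0.786 at d6 and ranged from 0.372 to 0.661 (median 0.417) at untreated d10 and from 0.273 to 0.444 at untreated d14. Treated tumors had 0.500, 0.616 and 0.586 at d10 and 0.341, 0.323 and 0.366 at d14. The decoy was thus below the signaling receptor per kilobase in each of the 17 tumors, least so at d6. These ratios are within-library descriptions without a test, and they do not measure protein.

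**Figure D3:**
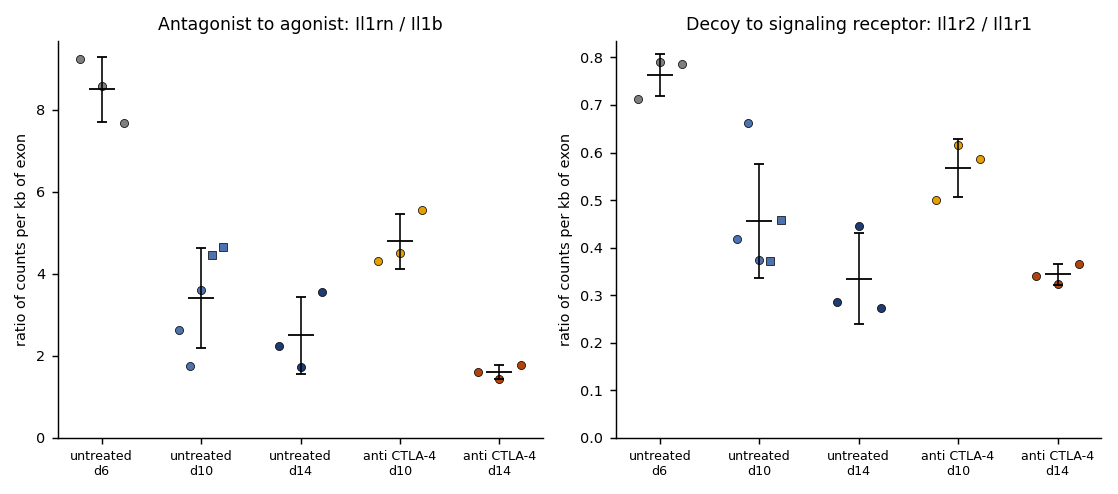
Ratio of counts per kilobase of exon within each tumor (vertical axis, from 0) for Il1rn over Il1b (left) and Il1r2 over Il1r1 (right) in the 5 groups, with mean and SD and squares for untreated d10 replicates 4 and 5. Both ratios are highest in the 3 d6 tumors, at 7.66 to 9.24 and 0.713 to 0.791.

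At d10, treated tumors had Il1b at 36.9, 33.4 and 28.5 CPM, Il1a at 11.7, 11.1 and 10.1 and Il6 at 6.20, 4.82 and 5.66. All of these values were below those of each of untreated replicates 1 to 3, while untreated replicates 4 and 5 were close to them (Il1b 35.4 and 44.0, Il1a 7.42 and 10.9, Il6 3.68 and 6.02). No member was called between treated and untreated d10 tumors by edgeR, against 0.0174% of 17258 genes (3 genes). At an unadjusted p below 0.05 there were 5 members and 2329 genes, and DESeq2 called 1 member, Il1f6 (log2 change -1.28, adjusted p = 0.000279), among 223 genes. In edgeR the Il1f6 change was -1.29 ± 0.26 (adjusted p = 0.152) and the Il1b change -1.01 ± 0.33 (adjusted p = 0.285). Il1f6 was the 1 member without overlap, against 8.44% of genes. Tnf stood at 9.25, 6.54 and 4.75 CPM in treated and 4.69 to 9.54 in untreated d10 tumors, a change of -0.01 with an interval from -0.58 to +0.56.

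Against untreated replicates 1 to 3 alone, treated d10 tumors had lower Il1b (-1.35 ± 0.19, adjusted p = 0.00134) and Il1f6 (-1.32 ± 0.27, adjusted p = 0.00637), both called, with Il1a at -0.82 ± 0.12 (adjusted p = 0.0015) and Il6 at -0.82 ± 0.14 (adjusted p = 0.00277). In that fit 1152 of 16963 genes were called. Against replicates 4 and 5 alone no member and 96 of 17125 genes were called, and the signs of Il1a (+0.26 ± 0.18) and Il6 (+0.19 ± 0.23) turned. Il1f6 was -1.22 ± 0.25 there (adjusted p = 0.0823). Treatment and the library set cannot be told apart for the agonists at d10.

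At d14, treated tumors had the highest group means of Il1a, Il1b, Il1f9, Il1r1 and Tnf of the series. Il1a stood at 28.9, 27.9 and 20.6 CPM against 16.9, 12.5 and 7.40 in untreated d14, and Il6 at 11.6, 7.28 and 8.23 against 4.78, 5.51 and 2.68. Neither pair of groups overlapped. Both genes were called, Il1a at +1.11 ± 0.28 (adjusted p = 0.0221) and Il6 at +1.10 ± 0.29 (adjusted p = 0.0240), 2 of 10 members against 11.5% of 18062 genes. Each call was sensitive to single tumors. Il1a lost it without untreated replicate 2 or 3 or treated replicate 1 or 2, and Il6 without untreated replicate 1 or 3 or treated replicate 1. Adjusted p-values over these fits ranged from 0.0129 to 0.0757 for Il1a and from 0.0223 to 0.0850 for Il6, and without untreated replicate 3, the tumor lowest in both, the changes were +0.88 and +0.87. Treated replicate 1, the highest treated tumor in both genes, also had the highest sum of acinar pancreas genes, 3219 CPM. That sum was 4.01 and 1097 CPM in treated replicates 2 and 3 and at most 1.77 in untreated d14. Its part in these calls was not tested.

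Of the other members at d14, 3 were higher with treatment at an adjusted p below 0.05 but by less than 2-fold. Tnf stood at 12.5, 12.9 and 10.7 CPM against 8.10, 5.02 and 6.79 (+0.89 ± 0.19, adjusted p = 0.0130), and was called without untreated replicate 1 (+1.07) or treated replicate 3 (+1.01). The signaling receptor Il1r1 stood at 73.6, 82.4 and 69.7 CPM against 62.0, 51.4 and 58.6 (+0.43 ± 0.10, adjusted p = 0.0202). The decoy Il1r2 stood at 7.52, 7.98 and 7.66 against 5.30, 6.85 and 4.79 (+0.49 ± 0.15, adjusted p = 0.0445). In these genes, as in Il1a and Il6, all treated tumors were above all untreated ones, 5 of 10 members against 24.1% of genes not overlapping in that direction and 51.9% in either.

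Il1b did not differ detectably between treated and untreated tumors at d14. It stood at 103.2, 99.6 and 95.2 CPM in treated tumors, a narrow range around the highest untreated one, and the change was +0.54 ± 0.32 with an interval from -0.21 to +1.29 (adjusted p = 0.236). Il1rn stood at 480, 417 and 492 CPM against 509, 491 and 345, a change of +0.08 ± 0.15 (adjusted p = 0.709). Il1f9, the IL-36γ gene, stood at 5.48, 4.17 and 4.85 against 2.68, 4.54 and 1.83 (+0.72 ± 0.31, adjusted p = 0.108), and Il18 at 3.58, 3.15 and 2.61 against 2.37, 2.02 and 3.20. The median log2 change of the 10 members was +0.51, that of all genes tested -0.0043.

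**Figure D4:**
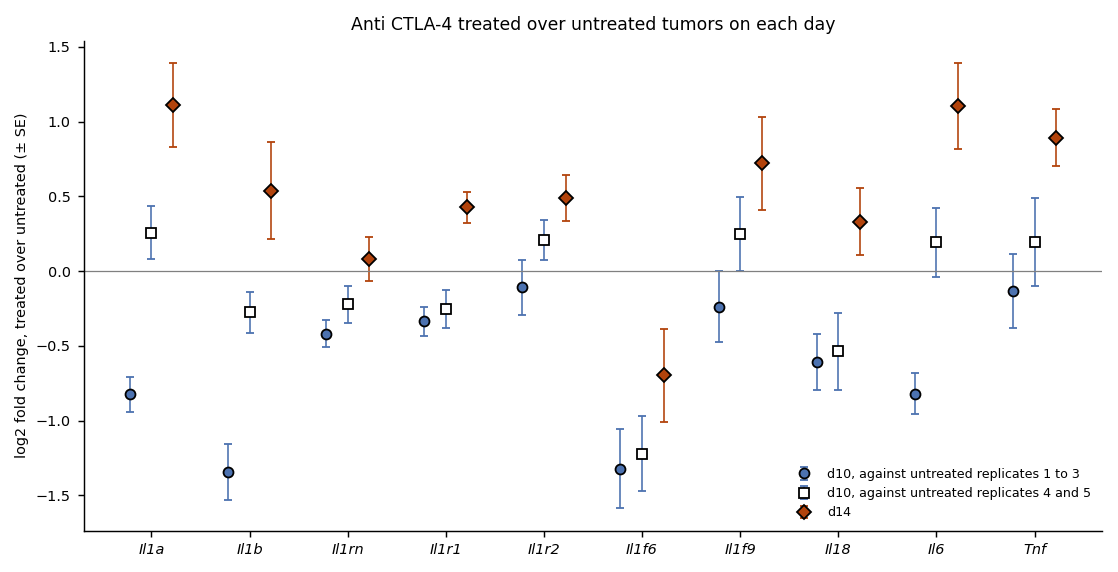
Log2 fold change of treated over untreated tumors (vertical axis, with SE bars) for each gene (horizontal axis), at d10 against untreated replicates 1 to 3 (circles) or 4 and 5 (squares) and at d14 (diamonds). The d14 change lies above both d10 changes for each member, and the circles and squares are apart for Il1a, Il1b and Il6.

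The treatment effect itself differed between days for Il1a (+1.58 ± 0.47, adjusted p = 0.0342) and Il6 (+1.59 ± 0.48, adjusted p = 0.0342) in a model of the 4 d10 and d14 groups, 2 members against 11.8% of 18574 genes. Il1r1 (+0.72 ± 0.15, adjusted p = 0.00758) passed the p threshold at less than 2-fold, and Il1b (+1.53 ± 0.52, adjusted p = 0.0561) did not pass it. The calls of Il1a and Il6 each held in 5 of 14 fits that left out 1 library. With untreated d10 replicates 4 and 5 alone, Il1a was +0.85 ± 0.39 and Il6 +0.90 ± 0.42 (adjusted p = 0.130 and 0.135). No member was called there, against 2466 of 19253 genes. With replicates 1 to 3 alone Il1a, Il1b, Il6 and Tnf were called, against 3172 of 18488 genes. The difference for Il1r1 kept an adjusted p below 0.05 with either set (0.00159 and 0.0155).

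Within the treated tumors, the IL-1 agonists were higher at d14 than at d10. Il1b (+1.61 ± 0.11, adjusted p = 0.00028), Il1f9 (+1.50 ± 0.19, adjusted p = 0.000641) and Il1a (+1.25 ± 0.13, adjusted p = 0.000411) rose and Il1f6 fell (-1.84 ± 0.28, adjusted p = 0.00122), 4 members against 11.5% of 17791 genes, and these were called in all 6 fits that left out 1 library. Il1f9 stood at 1.47, 1.61 and 2.13 CPM at d10 and above 4 in each treated d14 tumor. Il1r1 (+0.90 ± 0.10), Tnf (+0.83 ± 0.21) and Il6 (+0.72 ± 0.18) were higher by less than 2-fold at adjusted p-values of 0.000477, 0.0115 and 0.0118. The 2 IL-36 genes thus moved in opposite directions. In all, 8 of 10 members did not overlap between the days, against 59.8% of genes. Mir6236 separates these groups too (205 to 1244 counts at d10, 17 to 24 at d14), so what it tracks and the day cannot be told apart.

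Genes of the same pathways, taken from 7 lists of 95 genes outside the members, gave the setting. In the untreated tumors 5 of the 87 tested were called higher and 4 lower at d10 compared with d6 (7.45% of all genes called), and 2 higher and 11 lower at d14 compared with d6 (19.0% of all genes called), so neither count stands far from the share over all genes. Il18r1, the receptor for IL-18, rose as its ligand gene fell, from 2.56 to 3.09 CPM at d6 to 7.16 to 12.5 at d10 (+1.89 ± 0.22, adjusted p = 0.000647). Il11, an IL-6 family cytokine, rose from a mean of 0.642 CPM to 2.09 (+1.72 ± 0.31, adjusted p = 0.00506). The chemokines Ccl2 (-1.36 ± 0.16), Cxcl1 (-1.48 ± 0.37) and Cxcl5 (-1.43 ± 0.37), which draw monocytes and neutrophils, fell, as did Casp4, the sensor protease of the noncanonical inflammasome, whereas Ccl4, Ltb and Il11ra1 rose. All pathway calls that involve untreated d10 used its 5 tumors together and were not repeated for each set. Some ranges there were wide, at 16.0 to 52.9 CPM for Ltb, 3.58 to 9.29 for Il11ra1 and 7.38 to 28.8 for Cxcl1.

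By d14 the inflammasome list had 3 of 15 tested genes called lower than at d6 and none higher, close to the 19.0% of all genes called. Pycard, the adaptor that links sensors to caspase-1, fell from 31.3 to 33.3 CPM at d6 to 6.59 to 9.76 at d14 (-1.89 ± 0.15, adjusted p = 4.52e-05), beside Nlrp1b (-1.74 ± 0.34) and the neutrophil protease gene Prtn3 (-1.51 ± 0.34). The NF-κB target list had 5 of 26 called lower, again close to that share, Cxcl1, Ccl2, Cxcl5, Csf2 and the feedback inhibitor Nfkbia (adjusted p = 0.000338), with none higher. Il18bp, which neutralizes IL-18, was lower as well (-1.07 ± 0.15), as were Lta, the gene of the TNF relative lymphotoxin-α (-1.71 ± 0.29), and Il1rl1, the IL-33 receptor (-1.19 ± 0.20). From d10 to d14, 4 of the 87 tested genes were called, a smaller share than the 7.23% of all genes called. All 4 were lower, Pycard, Prtn3, Lta and Ltb, the last at -1.73 ± 0.43.

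With treatment at d14, 16 of the 87 genes were called higher and none lower, against 9.07% of all genes called higher. At d10 edgeR and DESeq2 each called 0 of the 87, and 8 had an unadjusted p below 0.05 in edgeR. Of the inflammasome list 5 of 15 tested genes were called, with a list median of +0.76. They were the sensor Nlrp3 (34.2 to 37.5 CPM against 14.4 to 19.9, +1.03 ± 0.13), the sensors Mefv (+1.50 ± 0.21) and Nlrc4 (+1.13 ± 0.30) and the neutrophil protease genes Ctsg (+1.45 ± 0.33) and Prtn3 (+1.32 ± 0.36). The caspase adaptor gene Pycard was not called. Irak3, an inhibitor of MyD88 signaling, was the 1 called gene of 14 on its list (+1.30 ± 0.17, adjusted p = 0.00487).

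Receptors and targets of the cytokines were also among the 16. Il1rl1 stood at 6.54 to 9.32 CPM against 3.06 to 4.65 (+1.11 ± 0.23) and Il18r1 at 22.5 to 26.4 against 7.50 to 18.6 (+1.11 ± 0.33). In the TNF list Birc3 (+1.20 ± 0.19), Ltb (+1.52 ± 0.34) and Lta (+1.22 ± 0.30) were called of 12, and in the IL-6 list Il11ra1 alone. Of 26 NF-κB targets 4 were called, the prostaglandin E synthase gene Ptges (47.7 to 58.4 CPM against 17.1 to 28.4), the adhesion molecule gene Icam1 (95.8 to 128 against 35.3 to 63.0), the acute-phase gene Saa3 and the chemokine gene Ccl4. The list median was +0.51. The treatment effect differed between days for 12 of the 87, all larger at d14, against 11.8% of all genes called, most of which (1797 of 2196) were larger at d14 as well. The 12 included Irak3 (+1.71 ± 0.28), Nlrc4 (+1.53 ± 0.34), Birc3 (+1.37 ± 0.25) and the IL-36 receptor gene Il1rl2 (+1.07 ± 0.33). Within the treated tumors 3 of the 87, Mefv, Irak3 and Cxcl5, were called higher at d14 than at d10, a smaller share than the 11.5% of all genes called.

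Summed markers of myeloid cells, which make several of these cytokines, were higher in treated than in untreated d14 tumors. Within untreated d14, replicate 3 had the highest neutrophil and macrophage sums (286 and 2951 CPM) and the lowest Il1a, Il1b and Il6. Replicate 2 had the lowest sums (214 and 1769 CPM) and the highest Il1b. Il18 was ordered as the sums were, highest in replicate 3 (3.20 CPM) and lowest in replicate 2 (2.02 CPM). Tnf was also lowest in replicate 2 (5.02 CPM) but highest in replicate 1 (8.10 CPM). Within untreated d10 the order differed, replicate 2 having the highest macrophage sum (5832 CPM) and the highest Il1b (110.7 CPM). Untreated d10 replicates 4 and 5 had the lowest neutrophil sums (264 and 238 CPM) and the lowest Il1a, Il1b and Il6. The macrophage sum of replicate 4 (4526 CPM) was nevertheless above that of replicate 3 (4268 CPM). Such orders within a group were not tested. Of 15 neutrophil markers 14 were detected, led by Mmp9 (39.5 to 333 CPM), and Trem1 was at 0 in all 17 libraries. Whether that 0 comes from expression or from annotation and counting was not tested. Median levels of neutrophil markers over the libraries were 108 CPM for Mmp9, 59.8 for Clec4e and 43.9 for Clec4d. They were 18.7 for S100a8, 7.70 for Cxcr2 and 1.47 for Ly6g, so the sum describes mainly the highest markers. The summed level of neutrophil markers was 584 to 737 CPM in treated d14 tumors, against 214 to 286 in untreated d14. It was 295 to 516 in treated d10 and 240 to 406 at d6. Untreated d10 tumors ran from 238 to 657, with replicates 1 and 2 at the top and 4 and 5 at the bottom. The 14 monocyte and macrophage markers, led by Lyz2, summed to 4460 to 5367 CPM in treated d14 and 1769 to 2951 in untreated d14. The 9 markers of resident peritoneal macrophages summed to 2737 to 3589 against 1605 to 2303. Fn1 alone stood at 1095 to 3509 CPM over the 17 libraries, so that sum describes mostly Fn1.

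Stromal and lymphoid markers differed too. The 8 fibroblast markers, of which Pdpn was at 0 in 14 libraries, summed to 3741 to 5706 CPM in treated d14 tumors and 1666 to 2980 in untreated d14. For Pdpn too, expression was not told apart from annotation and counting. T cell markers, led by Cd8a, summed to 58.6 to 63.4 CPM at d6, to 229 to 310 at untreated d10, to 95.6 to 172 at untreated d14 and to 253 to 291 in treated d14. Endothelial markers summed to 154 to 190 CPM in treated d14 and 96.7 to 113 in untreated d14, and dendritic cell markers to 147 to 171 and 83.7 to 122. Mast cell and basophil markers were at most 36.2 CPM in sum and adipocyte markers 15.4 to 116. In bulk tumors fewer cells of a type and less RNA per cell cannot be told apart. The part of these shifts in the member levels was not tested.

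**Figure D5:**
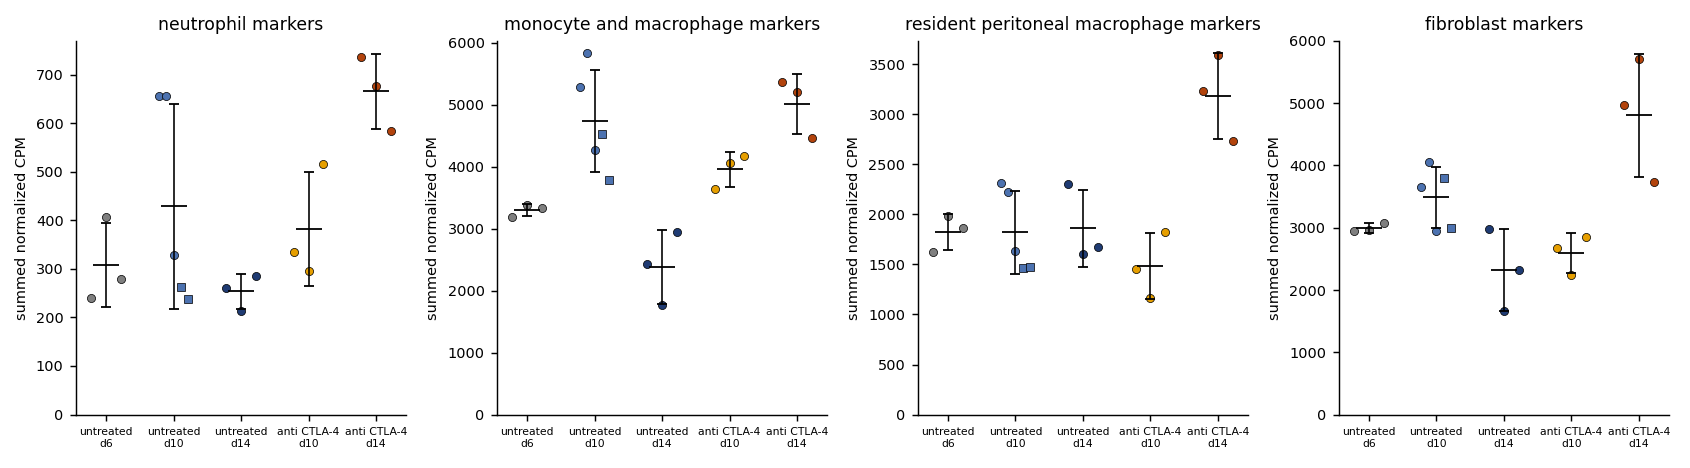
Summed normalized CPM (vertical axis, from 0) of the markers of 4 cell classes in each tumor, by group, with mean and SD and squares for untreated d10 replicates 4 and 5. The 3 treated d14 tumors lie above the 3 untreated d14 tumors in each panel, as in neutrophil markers at 584 to 737 against 214 to 286. The sum of resident peritoneal macrophage markers describes mostly Fn1, and that of neutrophil markers mainly its highest markers, led by Mmp9.

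Within the series, each member had its own closest companions by Spearman correlation over the 17 tumors, which share groups and library sets. Il1f6 ran with Bcap31 and Sub1 (rho = 0.966 each) and Psmb2 (0.963), and Il18 with Rnase6 (0.961), BC035044 (0.949) and P2ry13 (0.924). Il1r1 ran with Hrh2 (0.958), then Cplx2 and Sned1 (0.917 each). Il1rn was closest to Riok1 (0.941), Hirip3 (0.922) and Gtpbp8 (0.904). No member was among the 3 closest genes of another.

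For the other members the highest rho lay between 0.811 and 0.922. Il6 was nearest to A530064D06Rik (0.922), Stx11 (0.902) and Creb3l1 (0.887), and Tnf to Slc1a2 (0.922), Cd200 (0.902) and Plpp3 (0.900). Il1a was nearest to P3h3 (0.904), Olr1 (0.890) and Fam78b (0.885) and Il1b to Ubxn11 (0.870), Rasl11a and Rgma (0.858 each). For Il1f9 they were Ndor1 (0.860), Pla2g4a (0.826) and Ext1 (0.819), and for Il1r2 Ramp3 (0.811), Rab44 (0.804) and Lamb3 (0.801).

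The highest group mean was that of d6 for 5 members (Il1rn, Il1r2, Il1f6, Il18 and Il6) and that of treated d14 for the other 5. Il1a ran from treated d14 (25.8 ± 4.51 CPM, SD) through untreated d10 (15.4 ± 6.08), untreated d14 (12.3 ± 4.75) and treated d10 (10.1 to 11.7) to d6 (8.64 ± 0.845), and of these neighbors only treated d10 and d6 did not overlap. Il1b had treated d14 (99.4 ± 3.99) first and d6 (31.6 ± 2.57) last, with each pair of neighbors overlapping. Il1rn had d6 first (779 ± 98.4), apart from untreated d10 (575 ± 71.5), and the other 3 groups overlapped between means of 448 and 463. Tnf had treated d14 first (12.0 ± 1.16), apart from the next group, untreated d10 (6.92 ± 1.78), and d6 last (4.67 ± 1.15). Il6 had d6 first (13.1 ± 3.62) and untreated d14 last (4.32 ± 1.47), with each pair of neighbors overlapping.

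The IL-36 and IL-18 genes and the receptors were ordered as follows. Il1f6 ran from d6 through untreated d10, treated d10 (1.31 ± 0.283) and untreated d14 to treated d14 (0.359 ± 0.0907), and only the last pair of neighbors overlapped. Il18 (8.48 ± 2.18 at d6) stood apart from the next group, untreated d10 (3.64 ± 0.694), and the later groups overlapped. Both genes were thus highest at the earliest day. Il1r1 had treated d14 (75.2 ± 6.50) apart from untreated d14 (57.3 ± 5.43), with the remaining neighbors overlapping down to d6 (39.8 ± 0.856). Il1r2 had d6 first (9.12 ± 0.528), then treated d14 (7.72 ± 0.240) and treated d10 (6.91 ± 0.0761), these 3 apart from each other. Untreated d10 overlapped with all 3 through replicate 2 alone, at 9.95 CPM against 5.89 to 6.55 in the other 4. Il1f9 had treated d14 (4.83 ± 0.656) first, overlapping with untreated d14 (3.02 ± 1.38), and its other 3 groups had means of 1.73 to 1.81.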

How the data were processed

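RNA was taken from 17 peritoneal AB12 tumors, per the study's methods from independent mice. The authors isolated it with TRIzol and Direct-zol, made KAPA RNA HyperPrep libraries, sequenced paired ends on either of a pair of Illumina instruments, aligned reads with TopHat2 2.0.14 to GRCm38 and counted uniquely mapped reads per Gencode vM21 gene with HTSeq. Which library ran on which instrument was not given in the sources used here. The authors excluded genes with a batch effect between sequencing projects, and that filter was not applied here. The deposited matrix holds raw counts of 55450 genes, with 46371577 to 96759833 counts per library.

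Genes passing edgeR's filterByExpr (edgeR 4.0.16, R 4.3.3) were scaled by TMM and fitted by quasi-likelihood with the groups compared only, the difference of treatment effects over 4 groups. Calls used the authors' thresholds, an adjusted p below 0.05 and a change above 2-fold. Alternatives were DESeq2 1.42.0, no TMM, all genes with at least 1 count or only genes with at least 10 in every library, a joint fit of 5 groups, a replicate block, each set of untreated d10 tumors and leaving out each library. Scripts were tested on simulated counts. Ratios and shares used counts per kilobase of merged exons. All 22 pairs of libraries within groups differed beyond sampling noise (chi-square of 20.3 to 295 per gene).

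The members, 7 pathway lists and 12 marker lists were chosen with earlier results of these data known. Named besides the members were the called pathway genes (all where a list had 5 or fewer, otherwise the 4 with the smallest adjusted p), the 3 protein-coding genes with the highest Spearman correlation with each member among genes of at least 1 CPM on average, and marker genes at 0 or highest in their list. The NF-κB motif was searched in its consensus form, adopted after another pattern, which matched Il6 and Il1rn, had been tried.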

Additional observations from a re-analysis of the deposited data

Results flagged for a closer look

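Il1r2 in untreated d10 replicate 2 stood at 9.95 CPM, far from the other 4 tumors of its group at 5.89 to 6.55. The gap exceeded Dixon's 95% critical value, which chance passes in about 1 of 20 groups, and members at untreated d10 were the groups tested along with 2 ratios, 12 in all. The same tumor had the highest Il1b of the series at 110.7 CPM and a summed level of neutrophil markers of 656 CPM.

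The treatment effect at d14 exceeded that at d10 by a log2 difference of 1.58 for Il1a, 1.59 for Il6 and 0.72 for Il1r1, each by a test of the difference itself in edgeR (adjusted p = 0.0342, 0.0342 and 0.00758). For Il1a and Il6 the difference was no longer called when untreated d10 replicates 4 and 5 stood alone as controls (0.85 and 0.90), whereas Il1r1 was 0.67 there (adjusted p = 0.0155). All 3 treated d14 tumors exceeded all 3 untreated d14 tumors in each of these genes.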

How the results depend on the processing

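Of the members' log2 differences under the alternatives, 956 stayed on the same side of the threshold with the same sign, 34 changed sign (none of them called), 30 gained and 40 lost their call. The replicate numbers did not pair the tumors (correlations of same-numbered tumors -0.265 to 0.118). The replicate block gave untreated d10 replicates 4 and 5 no weight. It called 2 members from d10 to d14 (1589 of 17659 genes) and 2 between treated and untreated d10 tumors (1210 of 17258). In the difference of treatment effects it called 4 (3052 of 18574). Untreated d10 replicates 1 to 3 alone gave the same 3 counts (2, 2 and 4), against 1969 of 17400, 1152 of 16963 and 3172 of 18488 genes. Replicates 4 and 5 alone gave 0 in the difference of effects, against 2466 of 19253 genes. DESeq2 and the joint fit of 5 groups each called 1 member at d10, against 223 of 17252 and 77 of 18843 genes. Leaving out 1 library gave 0 to 4 members for d10 against d6, 1 to 2 for d14 against d10, 3 to 5 for d14 against d6, 0 to 3 for treatment at d14 and 0 to 4 for the difference of effects. In the same order these fits called 810 to 1377, 281 to 1528, 3117 to 3437, 1172 to 2851 and 1315 to 2598 of all genes. Signs turned for Il1f9 at d10 against d6 (-0.0070 in the joint fit, -0.31 with replicates 4 and 5, -0.20 to 0.18 leaving out a library), and from d10 to d14 for Il1a (0.41 with replicates 4 and 5), Il1b (-0.35 under the block, -0.25 with replicates 1 to 3, -0.24 to 0.42 leaving out a library) and Tnf (0.00094 without TMM, 0.15 with replicates 4 and 5, -0.24 to 0.10 leaving out a library). Between treated and untreated d10 tumors they turned with replicates 4 and 5 for Il1a (0.26), Il1f9 (0.25), Il6 (0.19) and Tnf (0.20), and for Il1r2 without TMM (-0.024), with at least 10 counts (-0.00024), under the block (-0.084) and with replicates 1 to 3 (-0.11). Leaving out a library gave -0.043 to 0.18 for Il1r2, -0.24 to 0.12 for Il1f9 and -0.28 to 0.19 for Tnf there, and -0.053 to 0.19 for Il1rn at d14. Without division by exon length the Il1rn to Il1b ratio was 24.7, 9.90 and 7.25 in untreated d6, d10 and d14 and 13.9 and 4.67 in treated d10 and d14, and the Il1r2 to Il1r1 ratio 0.229, 0.137, 0.1002, 0.170 and 0.103. The number of all genes called between treated and untreated d10 tumors was 3, but 223 in DESeq2, 77 in the joint fit, 40 with all genes of at least 1 count, 1210 under the block, 1152 with replicates 1 to 3 and 96 with replicates 4 and 5. It was 0 without TMM, 7 with at least 10 counts and 0 to 115 leaving out a library. From d10 to d14 it was 1277, but 281 without untreated d14 replicate 2, 2001 in the joint fit, 1969 with replicates 1 to 3 and 821 with at least 10 counts. For d10 against d6 it was 1257, but 2794 with replicates 4 and 5, and for d14 against d6 3270, but 2151 with at least 10 counts. The cause was not tested. Depth limits Il1f6 at d14, at 25 to 52 counts per library.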
